A study of Homo sapiens with 4 samples.

Results

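Of the 125986 accessible regions in the authors' deposited table, 25 lay on or within 10 kb of the RefSeq GRCh38 span of 1 of 10 genes of the ATF4 integrated stress response: ATF4, ATF5, DDIT3, DDIT4, TRIB3, ASNS, CHAC1, SESN2, FGF21 and PPP1R15A. Regions were assigned to these genes by position; the genes themselves were chosen with earlier results of these data known. They were measured by ATAC-seq, which uses the Tn5 transposase to insert sequencing adapters where chromatin is open. The cells were A375, a human melanoma line kept in DMEM with 10% serum. The vehicle group (isopropanol, 2 libraries) and the octanoate group (1 mM of this medium-chain fatty acid, 2 libraries) were both treated for 48 h. The labels do not say whether the 2 libraries of a group came from separate cultures, so p-values measure only the spread between these libraries, which may be technical.

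In the integrated stress response, kinases that sense amino acid shortage, unfolded protein, viral RNA or mitochondrial and haem stress phosphorylate the translation factor eIF2. General translation then falls while the mRNA of the transcription factor ATF4 is translated more, and ATF4 with its bZIP partners switches on genes of amino acid supply, redox control, growth restraint and, when stress lasts, cell death. ATF4 has been studied in melanoma as part of the switch to a slow-growing, invasive state. Its induction runs largely through translation, so accessibility at the ATF4 gene itself and at its targets are separate measurements.

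No member region passed the test. Of the 25 regions, 5 were strong enough to enter the authors' adjustment, which took in the 11185 regions whose mean normalized read count was 63.8 or higher. Of these 5, 0 had an adjusted p under 0.05 (DESeq2 Wald test, Benjamini-Hochberg) in the authors' deposited table. Over all tested regions 1.02% passed, and over the 5633 tested start regions of protein-coding genes 0.302%. An adjusted p under 0.1 was also reached by 0 of the 5, against 2.98% of tested regions. At an unadjusted p under 0.05, 0 of the 5 tested regions passed, against 14.8% of all tested regions that were higher and 0.107% that were lower. Counting the weak regions too, 0 of 25 had an unadjusted p under 0.05, against 3.76% of all listed regions. The adjusted p of the 5 tested members ran from 0.508 to 0.876 in the authors' deposited table. A p above the threshold does not show that accessibility was the same, so each change is given below with its 95% interval, computed from the deposited log2 fold change and its standard error under a normal distribution.

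The promoter letters are shown first, because the best known ATF4 site, the C/EBP-ATF response element, lies close to the start of several of these genes. The 250 bases before each start in the RefSeq (GRCh38.p14) set of promoter windows were searched on both strands. The letters sought were the C/EBP-ATF response element, TGATGNAA, the cAMP response element, TGACGTCA, and the ER stress response element, CCAAT followed after 9 bases by CCACG. No match overlapped another. All 10 members had at least 1 such window. The 5′ ends of the RefSeq spans of TRIB3 (380760) and ASNS (97928441) were not among the window starts. The bases before those 5′ ends were not searched as windows of their own. TGATGNAA was found before a start of ASNS, CHAC1 and FGF21, which is 3 of 10 members, against 3.16% of 15842 protein-coding genes. Counted by window it was in 2.35% of 22198. TGACGTCA was found at PPP1R15A, 1 of 10 members (2.73% of genes, 2.01% of windows), and the ER stress letters at 0 members (0.133% of genes, 0.0991% of windows). A match is a description of the letters and not a bound site, and no match says only that these letters are not in this window. The 4 windows with a match follow, 5′ to 3′ along the gene, with the match in capitals.
ASNS (chr7:97872409-97872658, minus strand): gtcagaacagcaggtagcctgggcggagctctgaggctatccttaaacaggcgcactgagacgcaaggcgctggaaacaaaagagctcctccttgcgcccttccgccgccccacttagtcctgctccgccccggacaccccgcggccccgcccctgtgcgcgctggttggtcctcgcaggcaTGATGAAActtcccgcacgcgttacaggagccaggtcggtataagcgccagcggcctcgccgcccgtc
CHAC1 (chr15:40953221-40953470, plus strand): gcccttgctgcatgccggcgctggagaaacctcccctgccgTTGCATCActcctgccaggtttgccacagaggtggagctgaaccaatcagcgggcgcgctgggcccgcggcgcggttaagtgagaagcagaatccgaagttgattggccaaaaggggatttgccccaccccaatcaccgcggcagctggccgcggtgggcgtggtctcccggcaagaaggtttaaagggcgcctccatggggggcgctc
FGF21 (chr19:48755274-48755523, plus strand): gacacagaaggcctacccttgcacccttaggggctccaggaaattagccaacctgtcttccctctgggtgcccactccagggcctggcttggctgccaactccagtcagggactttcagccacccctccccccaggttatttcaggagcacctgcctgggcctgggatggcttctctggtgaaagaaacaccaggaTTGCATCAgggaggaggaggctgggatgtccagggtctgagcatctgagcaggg
PPP1R15A (chr19:48872171-48872420, plus strand): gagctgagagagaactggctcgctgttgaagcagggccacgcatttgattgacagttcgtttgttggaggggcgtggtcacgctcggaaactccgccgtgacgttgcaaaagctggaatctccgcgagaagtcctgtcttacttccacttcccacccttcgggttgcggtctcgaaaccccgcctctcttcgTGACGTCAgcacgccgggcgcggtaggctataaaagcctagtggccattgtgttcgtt
The ASNS match reads along the gene, 68 to 61 bases before the start. In CHAC1 (209 to 202 bases before the start) and FGF21 (54 to 47 bases before it) the printed letters are the reverse complement, TTGCATCA. Listed open regions cover the ASNS, CHAC1 and PPP1R15A matches, and none covers the FGF21 match.

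An open region lay on an annotated start of 9 of the 10 genes, against 70.5% of 15842 protein-coding genes with an annotated start in the same table. FGF21 was the exception. Per kb of region, the mean normalized read count at the start was highest for ASNS, 96.9, and next for DDIT4, 60.2, DDIT3, 58.0, CHAC1, 52.5, and SESN2, 51.3. It was lower for PPP1R15A, 36.2, ATF5, 35.5, ATF4, 32.9, and TRIB3, 32.1. The table gives no spread for these means, so neighbours in this order cannot be told apart here. The 10866 start regions of protein-coding genes had a median of 52.7 per kb, and 6 of the 9 members lay below it. Of those start regions 89.5% were weaker per kb than that of ASNS and 19.4% weaker than that of TRIB3.

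**Figure D1:**
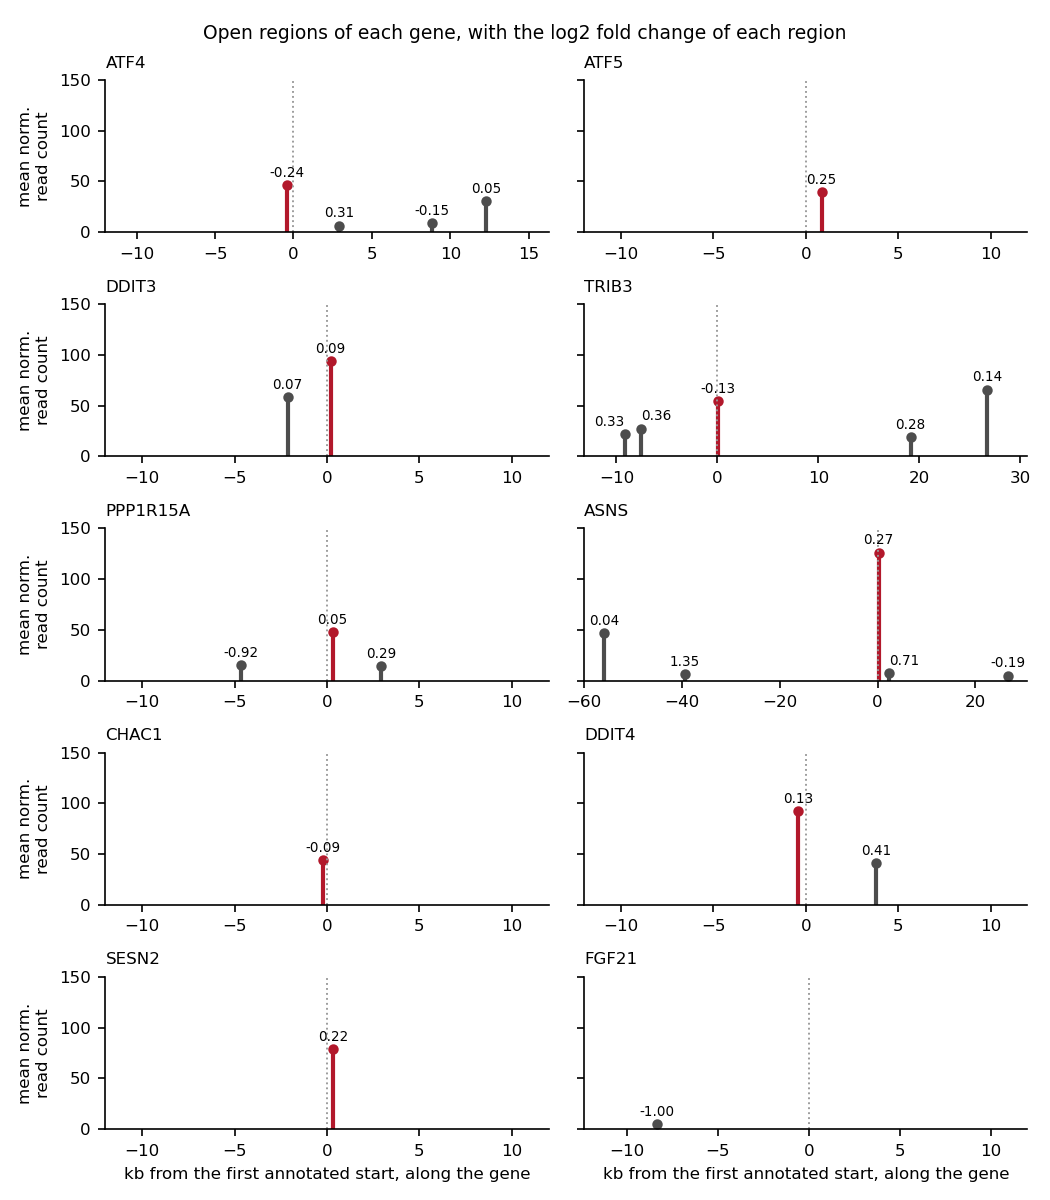
Mean normalized read count over the 4 libraries (vertical axis) of each open region against the distance of its centre from the first annotated start of the gene, in kb along the gene (horizontal axis, with its own range in each panel). Red stems are regions on an annotated start, grey stems are other regions, and the number on each is its log2 fold change; ASNS has the tallest start region, at 126, and FGF21 has no region at its start.

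The 3 transcription factors come first. ATF4, the bZIP factor that gives the response its name, had 4 regions. The one on its start (chromosome 22, 39519440 to 39520855) had a mean of 46.5 normalized reads, and the levels implied by that mean and the deposited fold change were 50.4 for vehicle and 42.7 for octanoate. Such implied levels assume that the deposited mean is the mean of both groups; the table gives no value per library, so whether the libraries of the groups overlapped was not analysed. The ATF4 start region had a log2 fold change of -0.24 (standard error 0.31, 95% interval -0.83 to 0.36, p = 0.437) in the authors' deposited table, the lowest value among the 9 start regions. Of all start regions of protein-coding genes, 4.66% had a lower log2 fold change. The other ATF4 regions were weaker, with means of 6.30 (2.8 kb past the start), 8.66 and 30.4, and log2 fold changes of 0.31, -0.15 and 0.05 in the authors' deposited table. The last pair lay on RPS19BP1, the neighbouring gene, and not on ATF4.

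ATF5, a related bZIP factor that is known for the mitochondrial branch of the response, had 1 region (chromosome 19, 49929205 to 49930314, mean 39.4). It covers annotated starts of IL4I1 and NUP62 as well, so its signal cannot be assigned to ATF5 alone. Implied levels were 36.0 for vehicle and 42.9 for octanoate. The authors' deposited table gave it 0.25 on the log2 scale (standard error 0.35, p = 0.468), and its 95% interval ran from -0.43 to 0.94.

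DDIT3 encodes CHOP, the bZIP factor linked to cell death under prolonged stress. Its start region (chromosome 12, 57519515 to 57521137) had a mean of 94.1, with implied levels of 91.0 for vehicle and 97.2 for octanoate. It also covers the first bases of the MBD6 span and a start of LOC128125814, so its signal cannot be assigned to DDIT3 alone. The log2 fold change was 0.09 (standard error 0.22, 95% interval -0.34 to 0.53, adjusted p 0.876) in the authors' deposited table. A second region 1.5 kb upstream covers an annotated start of MBD6, the neighbour on the other strand, and had a value of 0.07 (standard error 0.28) in the authors' deposited table. Among these 3 factors the start regions thus held values on both sides of 0, each with an interval that contains 0.

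TRIB3 and PPP1R15A act as brakes. TRIB3 is a pseudokinase that binds ATF4 and CHOP and limits their activity, and PPP1R15A (GADD34) brings a phosphatase to eIF2 and so restores translation. The TRIB3 start region (chromosome 20, 380514 to 382214) had a mean of 54.7 and implied levels of 57.1 for vehicle and 52.2 for octanoate. In the authors' deposited table its log2 fold change was -0.13 (standard error 0.28, 95% interval -0.68 to 0.42, p = 0.649). The other 4 TRIB3 regions were all above 0, at 0.33 and 0.36 upstream, 0.28 past the gene and 0.14 at the start of RBCK1, 26.0 kb past the TRIB3 start, in the authors' deposited table. The last of these was the strongest region near TRIB3 and entered the test (mean 65.6, standard error 0.26, adjusted p 0.836 in the authors' deposited table). TRIB3 lies 381 kb from the end of chromosome 20; the part of that position in these values was not tested.

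PPP1R15A had 3 regions. Its start region (chromosome 19, 48872062 to 48873381) had a mean of 47.8, implied levels of 46.9 for vehicle and 48.7 for octanoate, and a log2 fold change of 0.05 (standard error 0.30, 95% interval -0.54 to 0.65, p = 0.856) in the authors' deposited table. This region holds the TGACGTCA printed above. Of the 25 regions the one with the lowest p, 0.0999 in the authors' deposited table, lay 4.3 kb upstream (48867409 to 48868126), within the neighbouring gene PLEKHA4. That region was weak (mean 15.5), and its log2 fold change was -0.92 (standard error 0.56, 95% interval -2.01 to 0.17) in the authors' deposited table. The region within PPP1R15A, 2.7 kb past the start, had a value of 0.29 (standard error 0.55, mean 14.3) in the authors' deposited table.

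The metabolic targets were ASNS, which makes asparagine, and CHAC1, which breaks down glutathione. The ASNS start region (chromosome 7, 97871541 to 97872841) was the strongest of the 25, with a mean of 126 and implied levels of 114 for vehicle and 138 for octanoate. Its log2 fold change of 0.27 (adjusted p 0.508, standard error 0.19) was the highest among the 9 start regions in the authors' deposited table. The 95% interval ran from -0.10 to 0.65, which is a change between -6.63% and 56.6%. Of the other 4 ASNS regions, the one at the far upstream end of the annotated span (97928098 to 97928751, mean 46.6) had a log2 fold change of 0.04 (standard error 0.30) in the authors' deposited table. It covers the 5′ end of the RefSeq span (97928441) and had 71.2 normalized reads per kb. That position is not among the starts used, so the region was not counted or ranked as a start region. The remaining regions had means of 4.73 to 7.65 and values of -0.19, 0.71 and 1.35 with standard errors of 1.02, 0.77 and 0.85 in the authors' deposited table. The 1.35 was the largest of all 25 regions, in a region inside the gene span with a mean of 6.63 (p = 0.113 in the authors' deposited table, 95% interval -0.32 to 3.02).

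CHAC1 had 1 region (chromosome 15, 40952822 to 40953656, mean 43.8), which holds the TTGCATCA printed above. Implied levels were 45.2 for vehicle and 42.4 for octanoate, and the log2 fold change was -0.09 (standard error 0.32, 95% interval -0.71 to 0.53, p = 0.775) in the authors' deposited table. So the 2 open starts that carry TGATGNAA, those of ASNS and CHAC1, had values on opposite sides of 0. Neither interval excludes 0, and their difference was not tested.

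DDIT4 and SESN2 restrain the growth kinase mTORC1 when stress sets in. The DDIT4 start region (chromosome 10, 72272751 to 72274284) had a mean of 92.4 and implied levels of 88.2 for vehicle and 96.6 for octanoate, and it also covers a start of the antisense transcript DDIT4-AS1. In the authors' deposited table its log2 fold change was 0.13 (standard error 0.22, 95% interval -0.30 to 0.56, adjusted p 0.814). A wide, weaker region just past the gene (72276573 to 72278923, 2351 bp, mean 41.1) had a value of 0.41 (standard error 0.33, p = 0.212) in the authors' deposited table. SESN2 had 1 region, on its start (chromosome 1, 28259101 to 28260630, mean 78.6), with implied levels of 72.5 for vehicle and 84.6 for octanoate. Its log2 fold change was 0.22 (standard error 0.24, 95% interval -0.24 to 0.69, adjusted p 0.689) in the authors' deposited table.

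FGF21, a secreted metabolic hormone that liver and stressed muscle release, differed from the other members in having no listed region on its start or within its span. The only region within 10 kb of it lay 8.2 kb upstream (chromosome 19, 48747041 to 48747299) and was among the weakest, with a mean of 5.05. Implied levels were 6.73 for vehicle and 3.37 for octanoate, and the log2 fold change was -0.996 (standard error 1.04, p = 0.337) in the authors' deposited table. The 95% interval, -3.03 to 1.04, contains both a halving and a doubling, so neither is excluded at this signal.

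**Figure D2:**
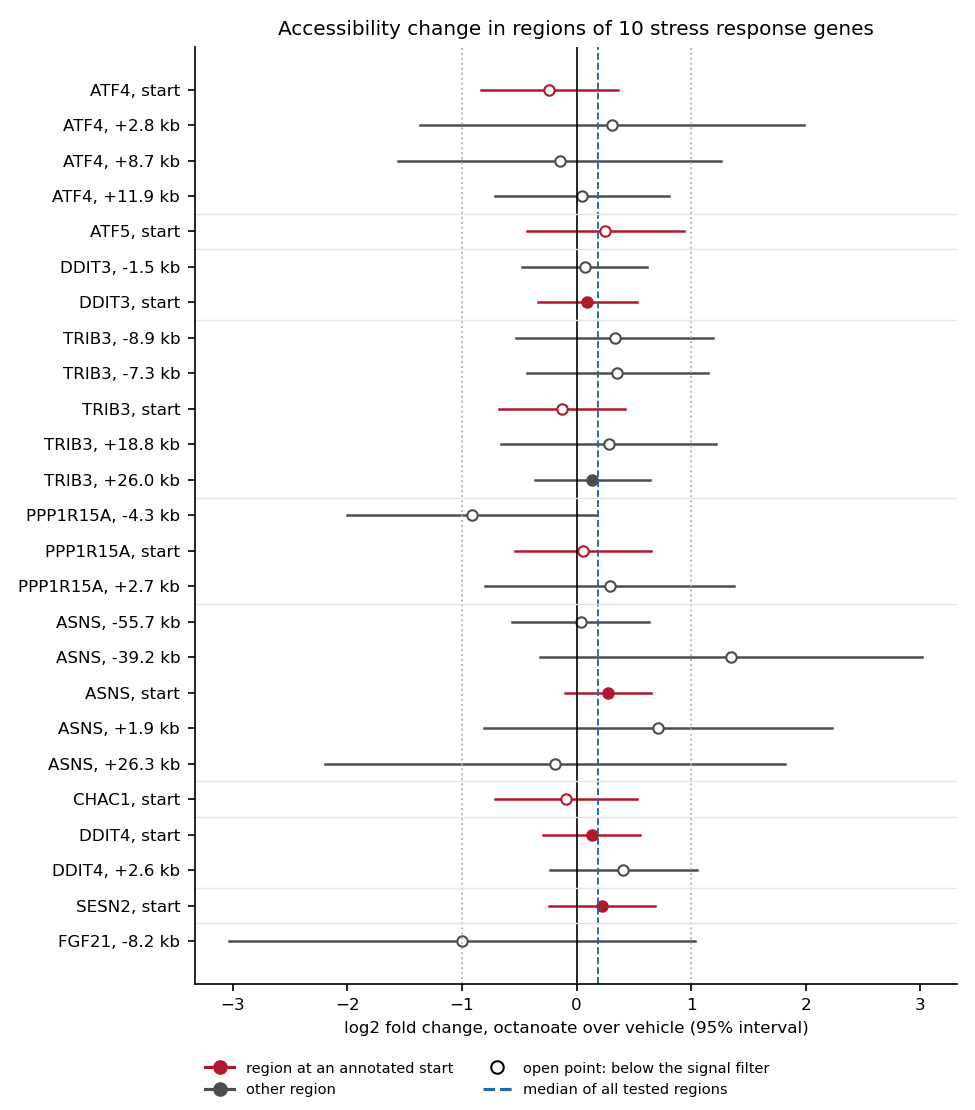
Log2 fold change of octanoate over vehicle (horizontal axis) with its 95% interval for each of the 25 regions, named by gene and by distance to the nearest annotated start. Red marks regions on a start, filled points entered the authors' adjustment, dotted lines mark a halving and a doubling, and the dashed line is the median of all tested regions, 0.19; every interval contains 0.

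What the intervals leave possible depended on signal. At all 9 start regions the 95% interval excluded both a doubling and a halving, whereas over the 25 regions it did so at 13. Standard errors were 0.19 to 0.35 at the start regions and up to 1.04 elsewhere, in the authors' deposited table. Their median was 0.28 at the member start regions and 0.26 over all 10866 start regions of protein-coding genes, in the authors' deposited table. How many of all start regions or all listed regions met this interval rule was not counted. The counts of 9 and 13 are therefore not read as a trait of these genes. Of the 25 regions, 9 had a mean under 20. The 5 tested members had standard errors of 0.19 to 0.26, and the median over all tested regions was 0.22, in the authors' deposited table.

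The median fold change of the whole table lay above 0, so the members were read against it. The median log2 fold change of the 25 member regions was 0.13, and 18 of them (72.0%) were above 0, in the authors' deposited table. With a flank of 50 kb in place of 10 kb the median of the then 74 regions was 0.22; at 10 kb without the TRIB3 regions it was 0.082. All 125985 nuclear regions had a median of 0.23 with 72.1% above 0, and the 73537 regions within 10 kb of any protein-coding gene had 0.21 with 72.6%, in the authors' deposited table. At the 9 member start regions the median was 0.09 and 6 were above 0, in the authors' deposited table, where the 10866 start regions of protein-coding genes had a median of 0.14 and quartiles of 0.01 and 0.26. The other 16 member regions had a median of 0.21, and regions within 10 kb of a protein-coding gene but on no start had 0.24, in the authors' deposited table. The median of all start regions, 0.14, itself lay below that of the tested regions, 0.19, and the share of start regions below the latter was not counted. Relative to the median of the tested regions, the start regions of ASNS, SESN2 and ATF5 lay above (0.09, 0.04 and 0.07) and the other 6 below, with ATF4 at -0.42. After this centring 0 of the 5 tested members had an adjusted p under 0.05, against 0.0536% of tested regions, and 0 an unadjusted p under 0.05, against 4.18%. Over all 25 members 1 had an unadjusted p under 0.05 after centring, the weak region upstream of PPP1R15A, against 1.68% of all listed regions.

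**Figure D3:**
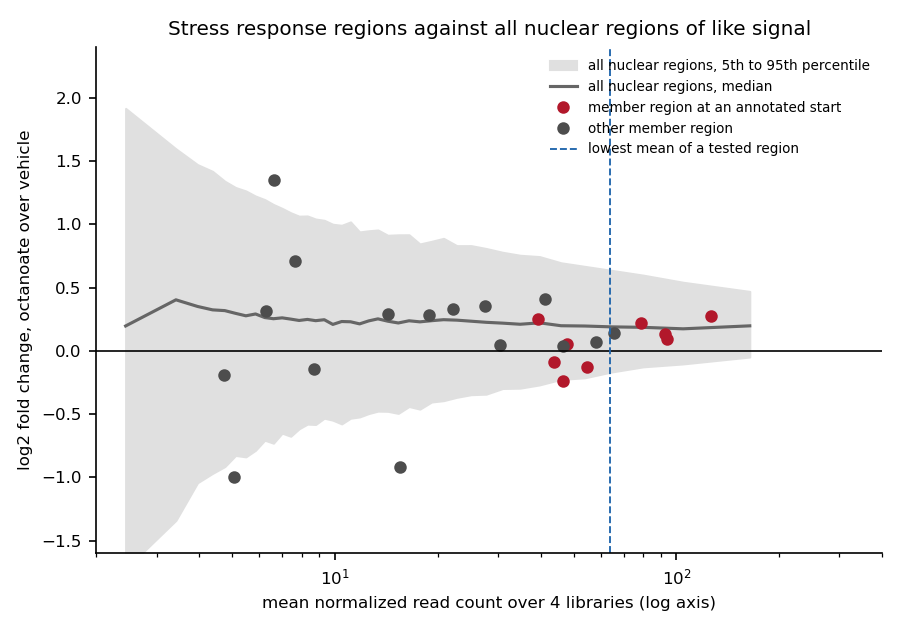
Log2 fold change of octanoate over vehicle against the mean normalized read count (log axis) for the 25 member regions (red on a start, grey elsewhere), over the median and the 5th to 95th percentile of all nuclear regions in 40 bins of equal size by mean. Of the members 21 lie within the band, 1 above it (ASNS, 1.35) and 3 below it (ATF4 start, PPP1R15A upstream and FGF21); the dashed line is the lowest mean of a tested region, 63.8.

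The limit of 10 kb was set by the rule. The member regions farthest from each gene had log2 fold changes of -0.996 to 0.41 in the authors' deposited table. The nearest regions beyond the limit lay 10.2 to 50.6 kb away and had values of -0.29 to 0.53, with a smallest p of 0.210, in the authors' deposited table.

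Other genes of the pathway were taken as 7 lists of 85 genes in all, chosen with earlier results of these data known. Of these genes 82 had at least 1 region within 10 kb, 297 regions in all, of which 74 were tested. Of the 297, 2 are also member regions, those of DDIT3, which lie within 10 kb of the synthetase gene MARS1. Of the 74, 1 was higher with an adjusted p under 0.05 in the authors' deposited table and 0 were lower, against 1.02% of all tested regions. At an unadjusted p under 0.05, 9 were higher (12.2%) and 0 lower, against 14.8% and 0.107% of all tested regions. By list, these 9 were 1 of 10 for eIF2 kinases and partners and 2 of 8 for bZIP partners. Amino acid genes held 1 of 18, secreted and death effectors 1 of 11, and the IRE1 and ATF6 arms 3 of 10. Mitochondrial chaperones and proteases held 1 of 5, and synthetase and tRNA export genes 0 of 12. After centring on the tested median 2 of the 74 had an unadjusted p under 0.05, against 4.18%, and 0 an adjusted p under 0.05, against 0.0536%. The median log2 fold change over the 297 regions was 0.16 in the authors' deposited table.

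The region that rose lay on the start of DNAJC3 (chromosome 13, 95676048 to 95678317), which encodes P58IPK, a co-chaperone that inhibits eIF2 kinases. Its mean was 372 and its log2 fold change 0.43 (standard error 0.12, adjusted p 0.0317) in the authors' deposited table. Relative to the tested median the DNAJC3 value was 0.25, with an adjusted p of 1 after that centring. Among the tested regions of the same list the next largest value was 0.35 at the start of EIF2AK4, which encodes the amino acid sensor GCN2 (adjusted p 0.540), and the smallest 0.01 at EIF2S3, the gamma subunit of eIF2, in the authors' deposited table.

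Among partner factors, a pair of regions within ATF3, a bZIP gene that ATF4 induces, had log2 fold changes of 0.60 (212595746 to 212596932 on chromosome 1, standard error 0.22, adjusted p 0.139) and 0.41 (212606825 to 212610087, standard error 0.13, adjusted p 0.0741) in the authors' deposited table. They lay 18.1 and 4.9 kb from the nearest ATF3 start in the promoter windows used, and neither passed the test. These windows do not hold every start, so whether either region covers another ATF3 start was not analysed. Relative to the tested median the ATF3 values were 0.41 and 0.22, with an adjusted p of 1 after that centring. Among the tested regions of that list the smallest value was 0.03, at the start of ATF7, in the authors' deposited table. A region within VLDLR, a lipoprotein receptor gene, had a value of 0.58 (chromosome 9, 2654992 to 2656113, standard error 0.19, adjusted p 0.0793) in the authors' deposited table, and 0.39 relative to the tested median (adjusted p 1 after centring). Among the tested regions of that list of secreted and death effectors the next largest value was 0.40, 9.5 kb from SQSTM1 and on LTC4S, and the smallest was -0.05 at the start of STC2, a secreted glycoprotein, in the authors' deposited table.

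Amino acid genes had 18 tested regions, from -0.08 at the start of SLC38A2, a neutral amino acid transporter, to 0.35 near SLC1A4, with 0.32 at PSPH of serine synthesis, a region shared with CCT6A, in the authors' deposited table. At an unadjusted p under 0.05 1 of the 18 was higher (5.56%, against 14.8% of all tested regions; 0 after centring), the PSPH region (p = 0.0347, adjusted p 0.290 in the authors' deposited table). The 12 tested regions of aminoacyl-tRNA synthetase and tRNA export genes had 0 at an unadjusted p under 0.05. Their median was 0.09, with LARS1 at 0.25, AARS1 at 0.21 (a region shared with DDX19B) and XPOT at 0.01 in the authors' deposited table. The 10 tested regions of the IRE1 and ATF6 arms included 3 at an unadjusted p under 0.05, all higher, where 14.8% of all tested regions were; after centring on the tested median 0 of the 10 were, against 4.18% in either direction. Their largest value was 0.32 at the start of HSP90B1, an ER chaperone (adjusted p 0.212), in the authors' deposited table. CALR, with 0.29, and HERPUD1, with 0.00, were the next largest and the smallest of these 10 in the authors' deposited table. Of the 5 tested regions of mitochondrial chaperones and proteases the largest value was 0.34, 9.8 kb from HSPA9 and on ETF1 (adjusted p 0.318), with 0.20 at the HSPA9 start and -0.06 near CLPP and on ALKBH7, in the authors' deposited table.

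**Figure D4:**
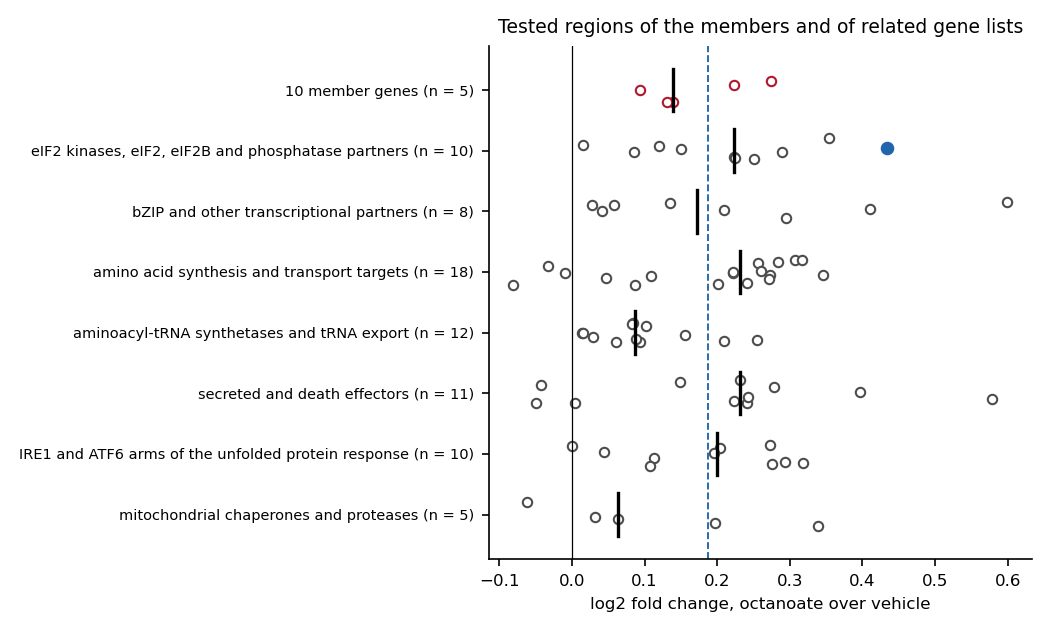
Log2 fold change of octanoate over vehicle (horizontal axis) for each tested region of the 10 members (red) and of the 7 related lists (grey), with a black bar at each median. The filled blue point is the DNAJC3 start region, the 1 region with an adjusted p under 0.05, and the dashed line is the median of all tested regions, 0.19.

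The labelled cell type was checked at marker genes. All 6 melanocytic markers had regions within 10 kb (50 in all, with summed means per gene of 45.6 at MLANA to 567 at MITF), and a start region was listed for MITF and DCT and for neither MLANA nor TYR. A start region was also listed for PDGFRA, a fibroblast marker (mean 130), and TP63, a keratinocyte marker (15.7), beside summed means of 168 at the MITF start and 50.9 at the DCT starts. SOX10 and PMEL had no annotated start in the table used. Markers of leukocytes, keratinocytes, fibroblasts and endothelial cells had 15, 12, 12 and 13 regions at 3, 3, 3 and 2 genes, with summed means per gene of 6.60 to 306. The part of other cells in the member values was not tested. The depth of each library is not in the table.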

How the data were processed

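ATAC-seq was done on 2 vehicle and 2 octanoate libraries of A375 cells, grouped by the sample titles. The submitters' processing notes name Trim Galore, cutadapt, FastQC, Bowtie2, Picard, MACS2, featureCounts, DESeq2 and bedtools 2.29.1 with build hg38; merging of regions and any Tn5 shift are not given in the sources used here. The authors deposited 1 DESeq2 table with 0 columns for single libraries. Its signal, per the file headers, is the normalized read count averaged over 4 libraries, its log2 values are the fold change of octanoate over vehicle and its standard error, its score is the Wald statistic, and its p-value is given raw and adjusted. The deposited adjusted p equals Benjamini-Hochberg adjustment over 11185 regions; the other 114801, listed at 1, are called not tested. No test over libraries was made beyond the authors'; p-values after centring, and an adjustment over all listed regions, were recomputed from the deposited values.

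Regions, counted from 1, were matched to the span of protein-coding genes in RefSeq GRCh38.p14 (all 10 members matched) with 10 kb on both sides; a start region covers an annotated start. Promoter windows are RefSeq's, cut to the 250 bases before the start. Annotated starts are those of these windows, which leave out the 5′ end of some gene spans, such as ASNS and TRIB3. Intervals at the 95% level, implied levels and p after centring were computed from the deposited values with Python 3.11.15, pandas 2.3.3, NumPy 2.4.6 and SciPy 1.17.1, and the functions were tested on simulated data. Exons and introns were not analysed here. Depth per library is not in the table, so no counting interval is given.

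Members and lists were chosen with earlier results of these data known. Named regions were, for each member, the one at or nearest its start, the strongest and any with p under 0.05; in each list, any with an adjusted p under 0.1, the 2 largest and the smallest tested fold changes.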

Additional observations from a re-analysis of the deposited data

How the results depend on the processing

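Only 5 of 25 regions were tested, and no value per library was at hand. The counts of member regions stayed at 0 for adjusted p under 0.05 with no flank, a 2 kb or 50 kb flank (10 tested regions at 50 kb), adjustment over all regions, a threshold of 0.1 and centring on the tested median. The count at an unadjusted p under 0.05 was also 0 under these flanks, the same centring and over all 25 regions; over all 25 with that centring, added after the data were seen, it was 1 (PPP1R15A upstream, unadjusted p 0.0476 from the authors' fold change and standard error, against 1.68% of all listed regions). The member median of 0.13 ran from 0.082 to 0.139 without each gene in turn, was 0.131 with no flank, 0.177 at 2 kb and 0.218 at 50 kb (74 regions), and became -0.098 relative to the median of all nuclear regions, because the subtracted median exceeded it. For the same reason some log2 fold changes turned below 0 on the tested median and on the median of all regions. Among the named regions these were DDIT3 (-0.093 and -0.14), the TRIB3 region on RBCK1 (-0.048 and -0.090), PPP1R15A (-0.13 and -0.17) and DDIT4 (-0.056 and -0.098), and on the latter median only SESN2 (-0.0059). Among the other regions these were the ATF4 region with a mean of 30.4 (-0.14 and -0.18), the upstream DDIT3 region (-0.12 and -0.16) and the far upstream ASNS region (-0.15 and -0.19). For the 7 lists, centring on the tested median left 0 regions at an adjusted p under 0.05, 2 at an unadjusted one (against 4.18% of tested regions) and a median of -0.026. No paired analysis was possible because single libraries have no column in the deposited table; leaving out a replicate and other scalings were not run for that reason.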

Other observations

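Promoter windows were split by whether the start lay in a listed open region, and no test of the difference was made. TGATGNAA was found in 1.29% of 14390 windows whose start was in a listed region and in 4.30% of the other 7808 windows. For TGACGTCA these shares were 2.70% and 0.743%. The median GC content of these windows was 66.0% and 52.0%. The part of base composition in these shares was not tested, and they are descriptions of letters in windows that can share bases. FGF21, with the element and no region at its start (window GC 60.0%), and ASNS and CHAC1, with the element in an open start (66.0% and 64.8%), stand on opposite sides of this split.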
